A study of Mus musculus with 6 samples.

Results

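The genes described here are 36 genes of the Fanconi anaemia pathway and of homologous recombination repair, taken by gene symbol from a list drawn up for this description, out of 54532 genes in the count table. Each of the 36 symbols matched 1 row of the table, and all 36 had enough reads to be among the 15938 genes tested. RNA sequencing covered 6 cultures of CD4+ T cells, isolated with magnetic beads from spleens of male C57BL/6 mice aged 6 to 8 weeks, activated through CD3 and CD28 and held for 72 h under Th1 conditions, which direct T cells toward IFN-γ production. ALX-5407, a selective inhibitor of the glycine transporter GlyT1, was present at 500 nM in 3 cultures, and the 3 control cultures had vehicle (0.1% DMSO). The methods name an exposure to the inhibitor shorter than the culture time in the labels. The labels call the replicates biological but do not say whether they came from separate mice, so the p-values measure the spread between these 6 cultures.

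Fanconi proteins repair crosslinks that tie both DNA strands together and protect stalled replication forks. A core complex of Fanconi proteins attaches ubiquitin to the FANCI-FANCD2 pair, nucleases then cut the crosslink free, and the resulting DNA break is repaired from the sister chromatid by homologous recombination. In that last step the break is trimmed by the MRE11-RAD50-NBN complex, CtIP and EXO1, and BRCA1, PALB2 and BRCA2 prepare the single strand for invasion of the template. T cells that divide quickly after activation replicate their genome often, and many of these genes are known to be transcribed mainly around S phase.

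Most of the 36 genes were higher in ALX-5407-treated Th1 cells, by amounts that were mostly below 2-fold. With edgeR's quasi-likelihood test and an adjusted p under 0.05, 23 of the 36 (63.9%) rose and 2 fell, while among all genes tested 24.5% rose and 23.2% fell. Their median log2 fold change was 0.36, against 0.0053 over all genes tested, and 31 of the 36 values lay above 0. The 3 treated cultures were all above the 3 controls in 24 of the genes and all below them in 2, where 28.4% and 27.1% of all genes tested showed these orders. Exo1 and Bard1 rose by more than 2-fold and none of the 36 fell by as much, against 3.36% and 6.68% of all genes tested. Bard1 lies near that threshold, and under 3 of the 9 alternatives only Exo1 passed it, while with library totals alone Brip1 passed it too. Summed over the 36 genes, the level was 1098, 1092 and 1200 CPM (counts scaled to a common library size) in the control cultures and 1399, 1388 and 1463 CPM with ALX-5407.

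**Figure D1:**
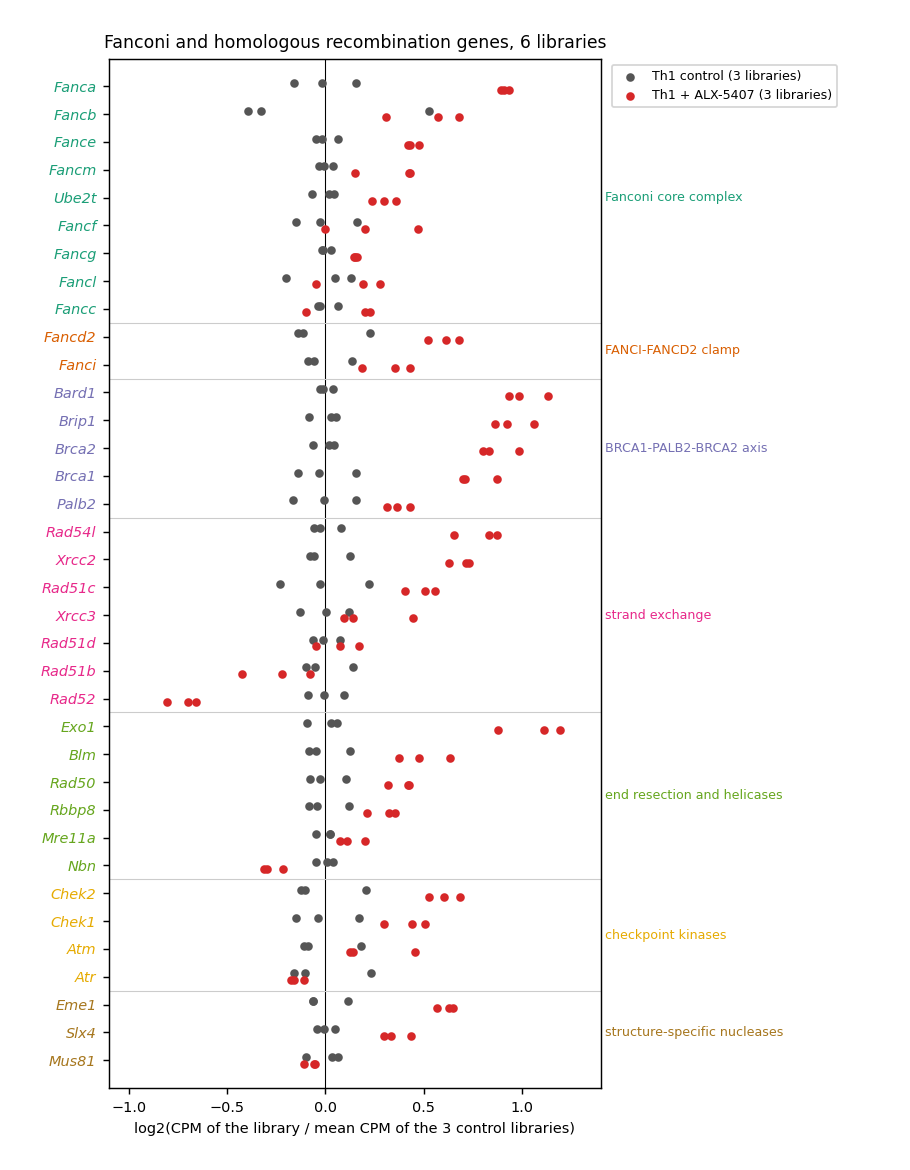
Level of each of the 36 genes in each library, as log2 of its CPM over the mean CPM of the 3 control libraries (x axis), with genes on the y axis grouped by role. Dark grey points are the 3 control libraries and red points the 3 ALX-5407 libraries. In 24 genes all red points lie to the right of the grey ones, and in Rad52 and Nbn all lie to the left.

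Library totals ran from 30801753 to 36727788 counts, and scaling factors from 0.965 to 1.03. Counts on the 36 genes ran from 117 to 4831 per library, so that none was near the limit of detection. The T cell genes Cd3d, Cd3e, Cd3g, Cd4, Cd5, Cd28, Lck and Zap70 together held 2918 to 3052 CPM in controls and 2873 to 2910 CPM with ALX-5407. Within this list, 2 genes rose and 4 fell, among them Cd4 (log2 fold change -0.46, adjusted p = 0.000174 in edgeR). Of 6 B cell markers 4 rose, and their sum went from 9.75 to 10.9 CPM in controls to 15.4 to 18.1 CPM. The 9 myeloid markers summed to 15.5 to 20.99 CPM in controls and 5.38 to 6.30 CPM with treatment, nearly all of it Cd68, with S100a8 and S100a9 at 0 in every library. The 2 CD8 markers summed to 9.25 to 9.59 and 6.71 to 8.87 CPM, the 5 NK markers to 12.4 to 16.0 and 15.1 to 16.4 CPM, and the 6 erythroid markers to under 1 CPM in each library. The part of these other cells in the results was not tested, and in bulk samples fewer cells of a type and less RNA per cell cannot be told apart.

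Gene coordinates are those of the count table, on mm10. The Fanconi core complex, here 8 of its proteins with the ubiquitin-conjugating enzyme Ube2t, was the group with the largest number of members that did not pass the test. Of the 9 genes, 4 (44.4%) rose (Fanca, Fance, Fancm and Ube2t), none fell, and all 9 values lay above 0, with a median log2 fold change of 0.30. Beside the counts in this and the other role groups stand the 24.5% and 23.2% of all genes tested that rose and fell. The groups are small, and their counts were not tested against those shares. Fanca (ENSMUSG00000032815, chromosome 8, 123268300 to 123318576), a scaffold subunit, had 649, 566 and 691 counts in the control cultures and 1359, 1394 and 1325 with ALX-5407. It rose from 20.2 ± 2.21 to 37.9 ± 0.564 CPM (SD, n = 3 each; log2 fold change 0.91, standard error 0.0942, adjusted p = 9.56e-07 in edgeR). The treated cultures of Fanca lay closely together and far above the controls, and no other gene of this group of 9 moved by as much.

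Fance (ENSMUSG00000007570, chromosome 17, 28313519 to 28326572), which helps bring the FANCD2 substrate to the complex, had 723, 644 and 647 counts in controls and 1043, 1060 and 1003 with treatment. It rose from 21.3 ± 0.856 to 28.9 ± 0.600 CPM (SD, n = 3 each; log2 fold change 0.44, standard error 0.0876, adjusted p = 0.000585 in edgeR). The groups did not overlap. Fancm, the DNA translocase that anchors the complex on chromatin, rose by 0.34 and Ube2t by 0.30 on the log2 scale (adjusted p = 0.00867 and 0.0152 in edgeR). The Ube2t call was lost without control replicate 1 or without ALX-5407 replicate 2 (adjusted p = 0.0660 and 0.0664 in edgeR). The ubiquitin ligase subunit Fancl had a value of 0.15, with a 95% interval from -0.13 to 0.42, and its groups overlapped. Fancc, Fancf and Fancg had values of 0.12, 0.24 and 0.15 with adjusted p from 0.178 to 0.444 in edgeR. For Fancb, the X-linked partner of Fancl, the counts were 117, 118 and 209 in controls and 267, 218 and 246 with treatment. Control replicate 3 lay among the treated cultures, and the log2 fold change of 0.53 (95% interval 0.077 to 0.98) had an adjusted p of 0.0514 in edgeR; without that control it was 0.87 (adjusted p = 0.000745 in the same test).

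Both genes of the FANCI-FANCD2 clamp, which the core complex ubiquitinates at a crosslink, rose. Fancd2 (ENSMUSG00000034023, chromosome 6, 113531682 to 113597017) had 1207, 1143 and 1447 counts in controls and 2034, 2294 and 2255 with ALX-5407. The level rose from 40.2 ± 5.93 to 61.1 ± 3.37 CPM (SD, n = 3 each; log2 fold change 0.61, standard error 0.0962, adjusted p = 7.50e-05 in edgeR). Control replicate 3 was the highest of its group and still lay below every treated culture. Fanci (ENSMUSG00000039187, chromosome 7, 79391929 to 79450264) had 832, 820 and 918 counts in controls and 1294, 1153 and 1218 with treatment. It rose from 27.2 ± 2.32 to 34.1 ± 2.92 CPM (SD, n = 3 each; log2 fold change 0.33, standard error 0.0950, adjusted p = 0.00944 in edgeR). The Fanci groups lay close to each other: without control replicate 1 the adjusted p was 0.0541, and without ALX-5407 replicate 1 0.0536, in edgeR.

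The BRCA1-PALB2-BRCA2 axis, which acts on trimmed DNA ends, was the role group with the largest median, 0.88 on the log2 scale, and all 5 of its genes rose. Bard1 (ENSMUSG00000026196, chromosome 1, 71027498 to 71103146), the obligate partner of BRCA1 in a ubiquitin ligase, had 732, 679 and 661 counts in controls and 1475, 1616 and 1682 with ALX-5407. Its level rose from 21.9 ± 0.535 to 44.4 ± 3.23 CPM (SD, n = 3 each; log2 fold change 1.02, standard error 0.0864, adjusted p = 1.21e-07 in edgeR), the smallest p-value among the 36 genes. The lowest treated culture stood at 41.8 CPM and the highest control at 22.5 CPM.

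Brip1 (ENSMUSG00000034329, chromosome 11, 86058138 to 86201193), a helicase that binds BRCA1 and is also known as FANCJ, had 578, 601 and 600 counts in controls and 1210, 1333 and 1376 with treatment. It rose from 18.8 ± 0.928 to 36.4 ± 2.56 CPM (SD, n = 3 each; log2 fold change 0.95, standard error 0.0915, adjusted p = 4.24e-07 in edgeR). Brca2, which acts after resection, had 31.1 ± 1.23 CPM in controls and 57.1 ± 3.86 CPM with treatment (SD, n = 3 each), a rise of 0.88 on the log2 scale (adjusted p = 3.03e-07 in edgeR). Brca1, a ubiquitin ligase that promotes resection, had 45.4 ± 4.72 and 77.1 ± 5.35 CPM (SD, n = 3 each), a rise of 0.76 on that scale (adjusted p = 2.56e-06 in edgeR). In both genes all treated cultures were above all controls. Palb2, the bridge between them, rose least, by 0.37 on the log2 scale (adjusted p = 0.0134 in edgeR, and 0.0565 without control replicate 3).

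The promoters of Bard1, Brca2 and Brip1 are shown because these genes had the smallest p-values among the risers with an entry in the RefSeq promoter table (GRCm38.p6), and that of Rad52, chosen after its values were seen, because it fell most. Each window holds 250 bases before and 50 bases after the RefSeq start, on the gene's strand, 5′ to 3′. Capitals mark exact matches, on either strand, to the E2F-type words TTTCCCGC, TTTCGCGC, TTTGCCGC or TTTGGCGC, or to the CCAAT box (CCAAT, or ATTGG on the other strand). E2F factors drive S phase genes, and CCAAT boxes are bound by NF-Y. The windows lie at chr1:71102923-71103222 on the - strand for Bard1, chr5:150522371-150522670 on the + strand for Brca2, chr11:86201144-86201443 on the - strand for Brip1 and chr6:119902448-119902747 on the + strand for Rad52.
Bard1: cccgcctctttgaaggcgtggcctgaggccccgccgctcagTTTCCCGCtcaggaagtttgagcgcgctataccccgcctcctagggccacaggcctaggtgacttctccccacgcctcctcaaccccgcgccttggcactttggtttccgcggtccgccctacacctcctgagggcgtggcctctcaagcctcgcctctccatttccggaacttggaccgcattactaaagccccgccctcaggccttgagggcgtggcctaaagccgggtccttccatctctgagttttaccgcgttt
Brca2: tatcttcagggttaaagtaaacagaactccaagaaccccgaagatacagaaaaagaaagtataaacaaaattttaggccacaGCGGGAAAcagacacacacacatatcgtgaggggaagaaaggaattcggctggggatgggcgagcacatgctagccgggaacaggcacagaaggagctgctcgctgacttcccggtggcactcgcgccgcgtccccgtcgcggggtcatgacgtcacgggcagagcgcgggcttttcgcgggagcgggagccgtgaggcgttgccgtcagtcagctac
Brip1: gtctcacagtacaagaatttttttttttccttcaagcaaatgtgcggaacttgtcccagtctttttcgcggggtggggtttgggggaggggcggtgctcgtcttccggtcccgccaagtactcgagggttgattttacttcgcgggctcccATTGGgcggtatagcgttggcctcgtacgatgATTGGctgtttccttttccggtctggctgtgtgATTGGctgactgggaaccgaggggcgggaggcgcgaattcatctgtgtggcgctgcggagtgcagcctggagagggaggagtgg
Rad52: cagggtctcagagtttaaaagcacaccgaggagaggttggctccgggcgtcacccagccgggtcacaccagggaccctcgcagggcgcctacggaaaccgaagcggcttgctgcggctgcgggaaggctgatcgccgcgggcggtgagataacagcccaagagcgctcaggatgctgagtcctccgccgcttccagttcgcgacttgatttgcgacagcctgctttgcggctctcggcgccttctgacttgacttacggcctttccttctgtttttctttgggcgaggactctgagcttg

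The Bard1 and Brca2 windows each held 1 E2F-type word and no CCAAT box, the Brip1 window held 3 CCAAT boxes in the reverse orientation and no E2F-type word, and the Rad52 window held neither. Of the 29 genes with an entry, 5 (17.2%) held an E2F-type word: Bard1, Brca2, Chek2, Fancg and Rad51c. Among all 32851 promoter windows of the table the share was 2.27%, and 3.93% among the 13246 windows of tested genes. The 29 genes have 32 windows and were counted once each if any window held the word. The other shares count single windows, so the 2 measures differ. A CCAAT box was in 18 of the 29 (62.1%), against 37.4% of all windows and 37.6% of those of tested genes. The CHR word TTTGAA, in either orientation, was in 3 of the 29 (10.3%), against 17.9% of all windows and 12.4% of those of tested genes. E2F-type words were in 4 of the 18 risers and 1 of the 11 others, and CCAAT boxes in 12 and 6 of them. A match of letters is a description and not a binding site. Exo1, Fancd2, Nbn, Rad50, Rad51d, Rbbp8 and Xrcc2 had no entry.

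**Figure D2:**
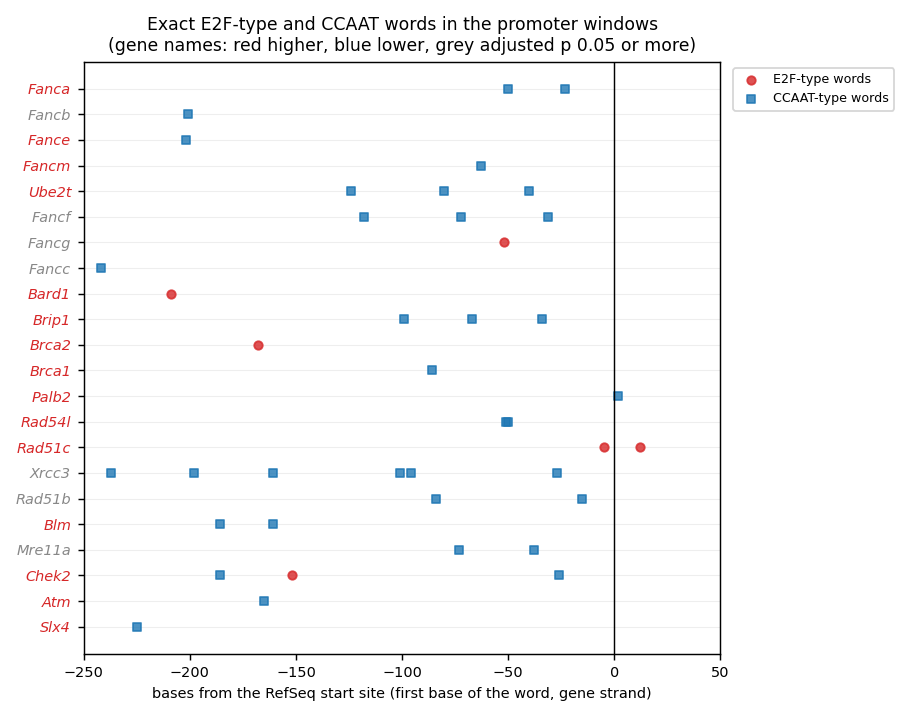
Position of each exact E2F-type word (red circles) and CCAAT box (blue squares) in the promoter windows, as bases from the RefSeq start (x axis), for the genes with at least 1 such word. Gene names are red for genes that rose and grey for genes with an adjusted p of 0.05 or more. The 3 CCAAT boxes of Brip1 lie 99, 67 and 34 bases before the start, and the words of Bard1 and Brca2 lie 209 and 168 bases before it.

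The strand exchange genes split. Of the 7 genes, Rad54l, Xrcc2 and Rad51c rose, Rad52 fell, and Rad51b, Rad51d and Xrcc3 did not pass the test. Rad54l (ENSMUSG00000028702, chromosome 4, 116094264 to 116123690), a motor protein that acts in invasion of the template, had 808, 761 and 821 counts in controls and 1589, 1482 and 1623 with ALX-5407. It rose from 25.3 ± 1.26 to 43.7 ± 3.48 CPM (SD, n = 3 each; log2 fold change 0.79, standard error 0.0884, adjusted p = 2.18e-06 in edgeR). All 3 treated cultures were above all controls.

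Rad52 (ENSMUSG00000030166, chromosome 6, 119902698 to 119922828), which anneals single strands and acts in recombination routes outside the BRCA2 route in mammals, moved the other way. It had 1915, 1720 and 1595 counts in controls and 1236, 1268 and 1105 with treatment. Its level fell from 55.2 ± 3.50 to 33.5 ± 1.79 CPM (SD, n = 3 each; log2 fold change -0.72, standard error 0.0818, adjusted p = 2.55e-06 in edgeR). Every treated culture was below every control, and the value stayed between -0.78 and -0.66 under all alternatives and with each library left out.

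Rad51b, Rad51c, Rad51d, Xrcc2 and Xrcc3 encode subunits of complexes that act in strand exchange. Xrcc2 rose from 7.30 ± 0.571 to 11.8 ± 0.446 CPM (SD, n = 3 each), by 0.69 on the log2 scale (adjusted p = 0.000254 in edgeR). Rad51c rose from 6.62 ± 1.04 to 9.30 ± 0.501 CPM (SD, n = 3 each), by 0.49 on the log2 scale (adjusted p = 0.0103 in edgeR). The Rad51c call was lost without control replicate 1 (0.38, adjusted p = 0.0646 in edgeR). Their partners Rad51d and Xrcc3 had values of 0.068 (95% interval -0.12 to 0.25) and 0.24 (-0.020 to 0.49), and Rad51b a value of -0.23 (-0.52 to 0.059), with overlapping groups in each.

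Genes of end resection and unwinding held both the largest rise and a fall. Of 6 genes, Exo1, Blm, Rad50 and Rbbp8 rose, Nbn fell and Mre11a did not pass the test. Exo1 (ENSMUSG00000039748, chromosome 1, 175880581 to 175913489), the exonuclease of long-range resection, had 342, 359 and 360 counts in controls and 856, 770 and 899 with ALX-5407. It rose from 11.2 ± 0.631 to 23.5 ± 2.58 CPM (SD, n = 3 each; log2 fold change 1.07, standard error 0.111, adjusted p = 1.03e-06 in edgeR). All treated cultures were above all controls, and Exo1 went from the lowest of the 36 genes per kilobase of gene length (1.33 CPM per kb, rank 36) to rank 29 (2.79 CPM per kb).

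Blm (ENSMUSG00000030528, chromosome 7, 80454733 to 80535119), the Bloom syndrome helicase, had 1962, 1939 and 2141 counts in controls and 2926, 3312 and 3481 with treatment. It rose from 63.9 ± 4.98 to 90.3 ± 8.32 CPM (SD, n = 3 each; log2 fold change 0.50, standard error 0.0843, adjusted p = 0.000136 in edgeR), with no overlap. Rbbp8, which encodes CtIP, rose by 0.30 on the log2 scale (adjusted p = 0.00647 in edgeR).

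The 3 genes of the MRE11-RAD50-NBN complex, which senses and first trims a break, did not move together. Rad50 rose from 90.0 ± 5.98 to 117.7 ± 4.82 CPM (SD, n = 3 each; log2 fold change 0.39, adjusted p = 0.000406 in edgeR). Mre11a, the nuclease, had 64.8 ± 1.88 and 70.9 ± 3.28 CPM (SD, n = 3 each), a value of 0.13 with a 95% interval from -0.023 to 0.28 (adjusted p = 0.152 in edgeR), although its groups did not overlap. Nbn (ENSMUSG00000028224, chromosome 4, 15957925 to 15992589), the adaptor that recruits ATM, had 1453, 1345 and 1402 counts in controls and 1273, 1331 and 1341 with treatment. In CPM, which allow for the larger treated libraries, Nbn fell from 44.4 ± 1.35 to 36.7 ± 1.39 (SD, n = 3 each; log2 fold change -0.28, standard error 0.0780, adjusted p = 0.00809 in edgeR). Per kilobase, Nbn was the highest of the 36 genes in controls (17.5 CPM per kb) and Rad50 the highest with ALX-5407 (21.9 CPM per kb). In CPM not divided by length, Atr was the highest in both groups (133.5 and 120.5 CPM).

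Of the 4 checkpoint kinases, which signal breaks and stalled forks to the cell cycle, Chek2, Chek1 and Atm rose and Atr did not pass the test. Chek2 (ENSMUSG00000029521, chromosome 5, 110839979 to 110874145), the target of ATM, had 375, 367 and 446 counts in controls and 639, 754 and 669 with ALX-5407. It rose from 12.6 ± 1.67 to 19.1 ± 1.06 CPM (SD, n = 3 each; log2 fold change 0.61, standard error 0.115, adjusted p = 0.000384 in edgeR). The groups were apart, with control replicate 3 nearest to the treated cultures.

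Chek1 (ENSMUSG00000032113, chromosome 9, 36708482 to 36727065), the target of ATR, had 813, 724 and 888 counts in controls and 1113, 1296 and 1279 with treatment. It rose from 25.6 ± 2.94 to 34.3 ± 2.52 CPM (SD, n = 3 each; log2 fold change 0.42, standard error 0.0987, adjusted p = 0.00230 in edgeR). Here too all treated cultures were above all controls. Atm was the weakest call of the 36 genes. Its levels of 80.2, 81.5 and 98.2 CPM in controls overlapped with 94.5, 95.6 and 118.8 CPM with ALX-5407 (log2 fold change 0.25, adjusted p = 0.0457 in edgeR). The call was lost in 5 of 9 alternatives and without each of 3 single libraries (control replicate 1 or 2, or ALX-5407 replicate 3), where the adjusted p ran up to 0.261 in edgeR. Atr had 124.2, 119.3 and 157.0 CPM in controls and 123.6, 118.1 and 119.7 CPM with treatment, and control replicate 3 stood far above the other 5 libraries (log2 fold change -0.15, 95% interval -0.34 to 0.045).

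Among the structure-specific nucleases, which cut crosslinks and joined DNA molecules, Eme1 and Slx4 rose and Mus81 did not pass the test. Eme1 (ENSMUSG00000039055, chromosome 11, 94644996 to 94653964), the non-catalytic partner of MUS81, had 336, 324 and 359 counts in controls and 564, 631 and 584 with ALX-5407. It rose from 10.8 ± 0.773 to 16.5 ± 0.487 CPM (SD, n = 3 each; log2 fold change 0.62, standard error 0.109, adjusted p = 0.000213 in edgeR). Slx4 (ENSMUSG00000039738, chromosome 16, 3979105 to 4003770), the scaffold that gathers nucleases, had 1159, 1075 and 1031 counts in controls and 1643, 1619 and 1485 with treatment. It rose from 34.5 ± 1.06 to 44.1 ± 2.17 CPM (SD, n = 3 each; log2 fold change 0.36, standard error 0.0797, adjusted p = 0.00155 in edgeR). Both genes had groups that did not overlap. Mus81 had 22.5 ± 1.32 and 21.3 ± 0.424 CPM (SD, n = 3 each), a value of -0.073 with a 95% interval from -0.27 to 0.12.

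**Figure D3:**
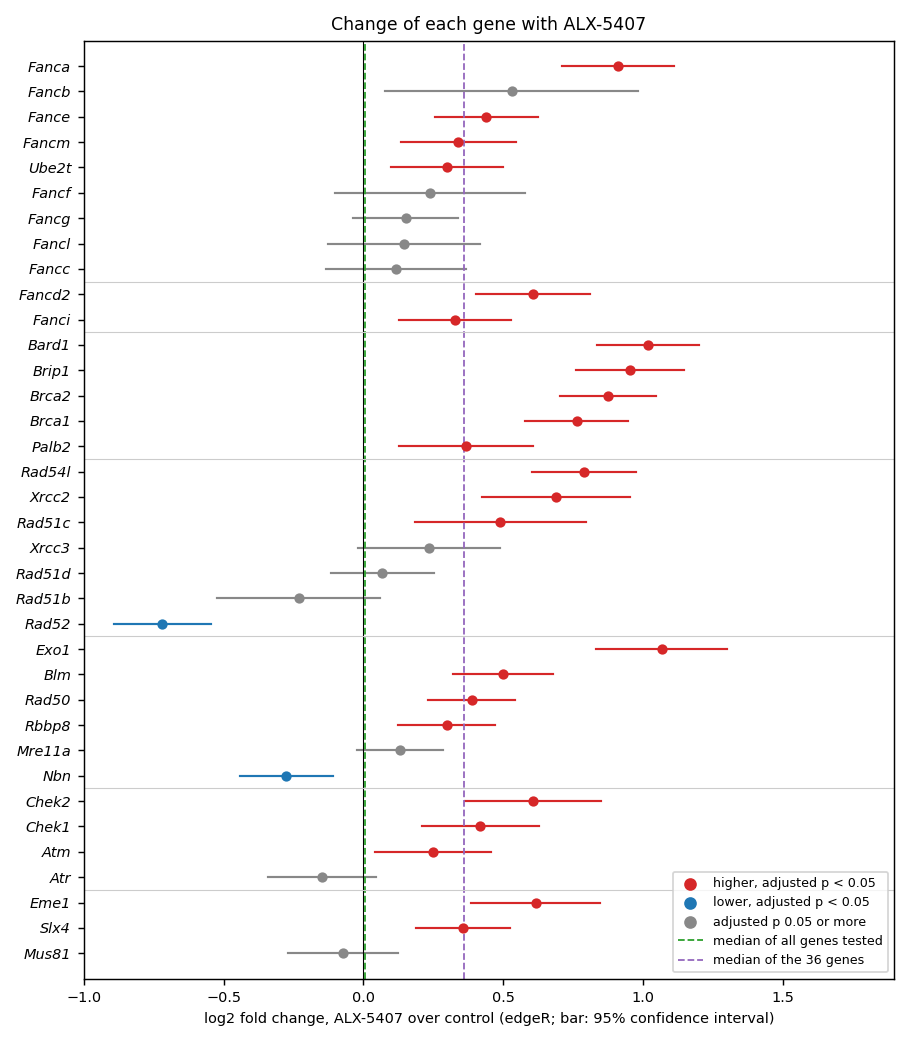
Log2 fold change of each of the 36 genes, ALX-5407 over control (x axis), from edgeR, with 95% confidence intervals not adjusted for multiple tests as bars and the role groups separated by lines. Red genes rose, blue genes fell, and grey genes had an adjusted p of 0.05 or more. The dashed lines mark the median of all genes tested (0.0053) and of the 36 genes (0.36).

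The ratio of the levels of genes whose proteins act together was taken within each library for 10 pairs, chosen after the values were seen, so that the ratios are a description with no test. The ratio of Eme1 to Mus81 was 0.440, 0.493 and 0.509 in controls and 0.738, 0.811 and 0.774 with ALX-5407. That of Rad50 to Nbn was 1.98, 2.25 and 1.87 in controls and 3.11, 3.38 and 3.15 with treatment. In both pairs every treated culture was above every control.

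The ratio of Rad51c to Rad51b went from 0.615, 0.867 and 0.619 to 1.19, 1.04 and 1.23, and that of Xrcc2 to Rad51d from 0.245, 0.223 and 0.201 to 0.305, 0.347 and 0.382. Rad54l and Rad52 differed most, with a ratio of 0.422, 0.442 and 0.515 in controls and 1.29, 1.17 and 1.47 with treatment, a difference of 1.51 on the log2 scale. The Bard1 to Brca1 ratio changed less, by 0.25, and that of Fancd2 to Fanci by 0.29 with overlapping groups. In 9 of the 10 pairs the groups did not overlap, a count that the choice of pairs bears on.

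**Figure D4:**
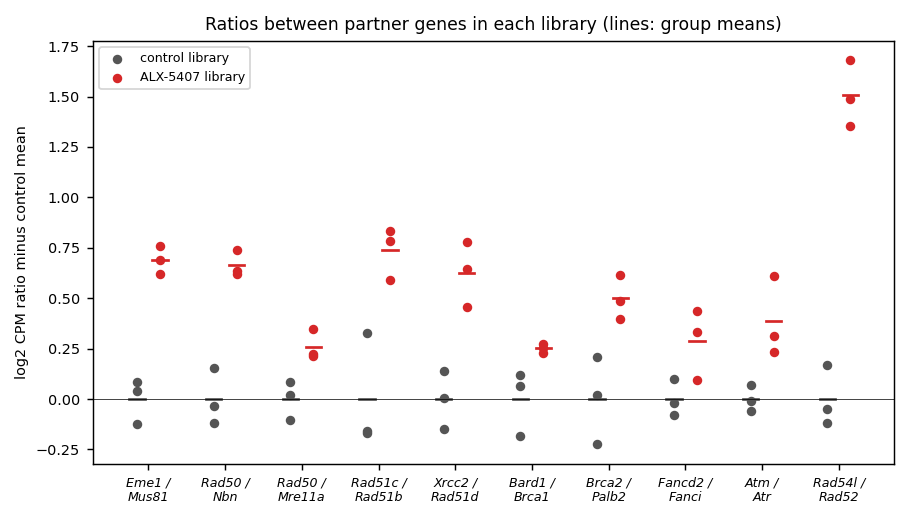
Log2 ratio of the CPM of partner genes in each library, minus the mean of the 3 controls (y axis), for 10 pairs (x axis). Dark grey points are controls, red points are ALX-5407 libraries and short lines are group means. The Rad54l to Rad52 ratio has the largest difference, 1.51, and the Fancd2 to Fanci ratio is the only one whose groups overlap.

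Control replicate 3 had the highest level of the 3 controls in 24 of the 36 genes, while in the treated group the replicates 1, 2 and 3 were highest in 13, 9 and 14 genes. The median coefficient of variation over the genes was 7.38% in controls and 6.14% with ALX-5407. Fancb varied most, at 38.2% in controls. With control replicate 3 left out, 23 genes rose and 2 fell. Over the 6 single-library omissions the count of risers ran from 19 (without control replicate 1) to 23.

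Other genes of the pathway, came from a list of 57 symbols, of which 51 were in the table and 50 were tested. Of these, 28 (56.0%) rose and 9 (18%) fell, against 24.5% and 23.2% of all genes tested. The median log2 fold change of the 50 was 0.30. Among those with the smallest p-values were Rmi2 (1.52, adjusted p = 2.98e-08 in edgeR), a subunit of the BLM dissolvasome, Faap24 (1.47), the DNA-binding partner of FANCM and the single-strand binding protein Rpa1 (0.80). The 9 that fell, named after their values were seen, were Sfr1 (-0.92) and Swi5 (-0.42), which form a complex that acts in strand exchange, Zswim7 (-0.77), which pairs with Swsap1 (0.65), Wdr48 (-0.39), the cofactor of the deubiquitinase Usp1 (0.71), the BRCA1-A complex genes Uimc1 (-0.25) and Babam2 (-0.40), the helicase gene Fbxo18 (-0.42), and Smc5 (-0.29) and Smc6 (-0.22), which form an SMC complex. Swsap1, Usp1 and the BRCA1-A gene Babam1 (0.28), also named after their values were seen, all rose. Abraxas1 (-0.19) and Brcc3 (-0.13) of the BRCA1-A complex, named likewise, did not pass the test.

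The checkpoint clamp, mediator and chromatin genes, 20 in all, held 13 risers (65%) and none that fell, against 24.5% and 23.2% of all genes tested. Their median was 0.40, and 0 fell at an unadjusted p under 0.05 in edgeR. Wee1 (1.16), Timeless (0.71), H2afx (0.87) and Clspn (0.80) had the smallest p-values (adjusted p from 5.68e-07 to 6.67e-06 in edgeR). WEE1 holds back CDK1 before mitosis, and claspin and timeless link ATR to the fork. Non-homologous end joining is the route that rejoins broken ends without a template. Of its 11 genes 3 (27.3%) rose and 2 (18.2%) fell, near the 24.5% and 23.2% of all genes tested, with a median of 0.040. Dntt, which adds bases without a template at rearranging antigen receptor genes, fell by 1.56 and Polm by 0.33 on the log2 scale, while Prkdc (0.59), Xrcc6 (0.43) and Lig4 (0.38, named after its value was seen) rose (adjusted p from 1.14e-09 to 0.0475 in edgeR). The difference between these lists was not tested.

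Genes of DNA replication and mitosis were also higher in most cases. Of 40 replication fork and licensing genes 34 (85%) rose and none fell, against 24.5% and 23.2% of all genes tested. Their median log2 fold change was 0.68, and their summed level was 2661 to 2805 CPM in controls and 4098 to 4306 CPM with ALX-5407. Rrm2 (1.52), Cdt1 (1.29), Mcm2 (1.09) and Mcm3 (0.92) had the smallest p-values. Of 22 mitotic genes 20 (90.9%) rose and none fell, against the same shares of all genes tested. The risers included Aurka (0.95), Plk1 (0.91), Bub1b (0.79) and Cenpf (0.99). The median of the 22 was 0.53, and their sum went from 2653 to 2920 CPM in controls to 3997 to 4411 CPM. No gene of either list fell at an unadjusted p under 0.05 in edgeR. The part that a changed share of cells in S phase had in the rise of the repair genes was not tested.

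**Figure D5:**
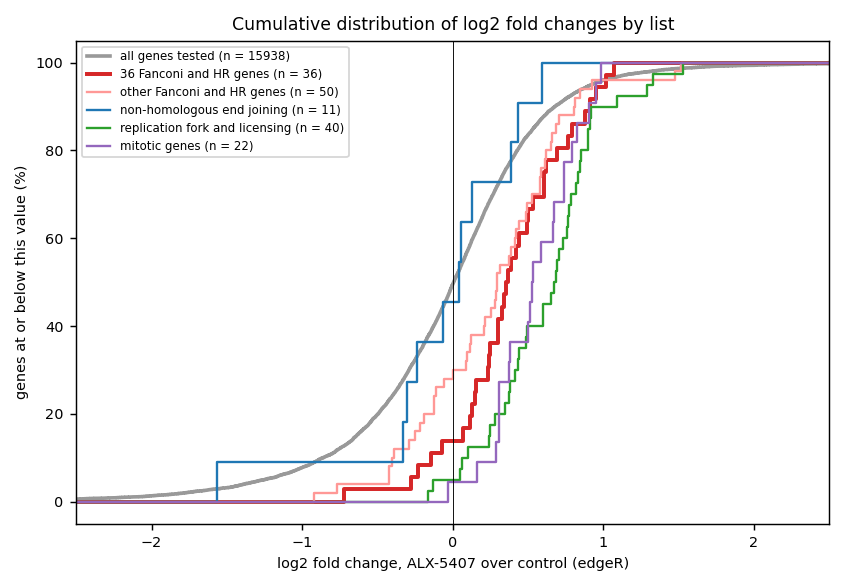
Cumulative share of genes (y axis, percent) at or below each log2 fold change, ALX-5407 over control (x axis), for all genes tested and 5 lists. The median of the 36 genes (0.36) lies between that of all genes (0.0053) and those of mitotic (0.53) and replication genes (0.68), and the curves of the 36 genes and of mitotic genes cross near their upper ends. The median of end joining genes is 0.040.

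In GENCODE M21 (GRCm38), 35 of the 36 genes have the same start and end as in the count table. Exons of 19 genes overlap with no other gene, and 13 of these 19 rose, where 24.5% of all genes tested rose. In 7 genes at least 10% of the exon bases are shared with another gene, all on the opposite strand, and 4 of these rose. They are Fanca (10.5%, Zfp276), Fancc (18.6%, 2010111I01Rik and Gm16133), Fancf (14.96%, Gas2), Fancl (13.7%, Vrk2), Fanci (16.0%, Polg), Rad54l (15.4%, Lrrc41) and Eme1 (10.7%, Lrrc59 and Mrpl27). Whether the counting used strand is not given in the sources used here, so it is not known how reads in shared bases were counted. Of the genes that overlap with the 4 risers, Zfp276, Polg, Lrrc41 and Mrpl27 did not pass the test, with log2 fold changes of 0.0027, -0.17, -0.076 and -0.12, and Lrrc59 rose by 0.19 (adjusted p = 0.0301 in edgeR). Beside Fancc, at 0.12, 2010111I01Rik rose by 0.58 on the log2 scale. Apart from such neighbours, only Mus81 shared a stretch of 200 bases or more at 95% identity with the transcripts of another gene (Gm48985).

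Starts of protein-coding genes on the other strand were sought up to 1000 bases before each gene's start and a short way inside the gene. Starts further inside were not counted. By this rule, 11 of the 36 genes have such a neighbour. Of these neighbours 5 passed the test, and 4 of them fell while the repair gene rose. Among all genes tested 24.5% rose and 23.2% fell, so that 5 of 11 passing is near the share of all genes. Brca1 rose by 0.76 while Nbr1, 194 bases away, fell by 0.27 on the log2 scale (adjusted p = 0.00327 in edgeR), and Fancd2 rose by 0.61 while Emc3, 30 bases away, fell by 0.36 (adjusted p = 0.000676 in edgeR). Next to Palb2, Dctn5 at 56 bases fell by 0.51, and next to Chek2, Hscb at 202 bases fell by 0.64 (adjusted p = 2.31e-05 and 1.05e-05 in edgeR). Pomgnt1, 150 bases from Rad54l, rose with it, by 0.53 (adjusted p = 0.00329 in edgeR).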

How the data were processed

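RNA of 6 cultures was sequenced (3 with ALX-5407, 3 with vehicle). The authors deposited raw counts per gene, not normalized and not pooled, with gene coordinates and lengths; the methods name DESeq2, and edgeR was used here for all main tests. The submitters' processing notes name fastp, HISAT2 2.0.5, featureCounts 1.5.0-p3 and mm10; the annotation release and strand setting are not given in the sources used here. Poly(A) capture is stated in the labels and ribosomal RNA depletion in the methods. Counts were tested with edgeR 4.0.16 in R 4.3.3 (filterByExpr with a minimum count of 10 and a minimum total of 15, TMM, quasi-likelihood F test, no covariate), with Benjamini-Hochberg adjustment over 15938 genes. A gene was called at an adjusted p under 0.05. Standard errors came from the fold change and its F statistic. Per-kilobase levels used the lengths in the table. For nearly all of the 36 genes these equal the exon bases of all annotated transcripts together, so per-kilobase ranks depend on the annotation. Depth was 30801753 to 36727788 counts per library. The procedure was tested on simulated data. Alternatives were other scalings, filters, protein-coding genes alone, DESeq2 1.42.0, limma-voom 3.58.1, a replicate block and each library left out. Within each group, the counts of any 2 libraries were further apart than sampling allows (chi-square per degree of freedom 5.35 to 20.2), so each was counted separately. BLAST 2.17.0 compared transcripts, and matplotlib 3.10.9 drew the figures. The genes and lists were chosen with earlier results of these data known. All 36 genes may be named; those given in full are the 2 called genes per role group with the largest absolute change and all that fell, and up to 4 called genes with the smallest p are named per other list, apart from genes said to be named after their values were seen and genes next to a member. Results for some genes of these lists are not reported here.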

Additional observations from a re-analysis of the deposited data

How the results depend on the processing

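Each of the 36 genes kept its direction under all 9 alternatives and with each of the 6 libraries left out. The number of genes that rose ran from 22 to 25 under the alternatives, and 2 fell in all of them. The number that rose by more than 2-fold was 2, and 1 with upper-quartile scaling, with at least 1 CPM required in 3 libraries and with protein-coding genes alone, 3 with library totals alone (Brip1 was added), and it ran from 1 to 3 with 1 library left out (3 without ALX-5407 replicate 1, where Brip1 was added). In the 3 alternatives that left 1 gene, Bard1 had 0.97, 0.999 and 0.97 on the log2 scale. In single genes, 519 of the other values kept their side of the threshold, 14 lost the call (Atm, Fanci, Palb2, Rad51c and Ube2t) and 7 gained it (Fancb and Mre11a). The 3 same-numbered pairs of libraries had correlations of their deviations from -0.0084 to 0.063. The differently numbered pairs ran from -0.061 to 0.066, so no pairing by number was seen. With 3 cultures a group, this check cannot exclude a pairing. With a replicate block, 24 genes rose, 2 fell, and 4071 and 3833 of all genes rose and fell. With 3 cultures a group, an exact permutation test of 1 gene cannot give a p under 0.1.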
